A study of Mus musculus with 21 samples.

Results

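Killer cell lectin-like receptors are a family of surface receptors best known from natural killer (NK) cells, and a number of them also appear on activated and memory CD8+ T cells. Of the 19505 genes measured, 10 are described here: the 9 receptor genes Klrd1, Klrc1, Klrc2, Klrk1, Klra6, Klra7, Klre1, Klrg1 and Klrb1c, and Ncr1, an immunoglobulin-like receptor of NK cells that was included as a marker of NK carry-over. Genes were taken by their symbol in the platform's annotation, with the row of the highest mean over all 21 arrays where a symbol had several rows, and each of the 10 symbols had 1 row. The list was chosen by family and by gene symbol with earlier log2 levels and medium differences of these arrays known, so the genes are not a random sample of the receptors. The values that chose a row, the means over 21 arrays, decided nothing here and are given as a description.

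The arrays measured RNA of wild-type mouse splenic T cells, of a strain that the labels do not give, which were activated on CD3/CD28 beads and kept for 48 h in 1 of 3 media. The media were the filtered supernatant of WEHI-3B cells, a mouse myelomonocytic leukaemia line that the labels call AML (7 arrays), the filtered supernatant of dendritic cells (DC) grown from bone marrow (7 arrays), and fresh medium (7 arrays). Before RNA was extracted, CD8+ cells were purified a second time on magnetic columns, and 1 label field, against all the others, names a reticular stromal cell type. The labels call the samples biological replicates numbered 1 to 7 in each medium, without saying which mouse or day a number stands for, so p-values measure the spread between these samples.

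Most of these receptors pair with a partner or an adaptor. CD94, the product of Klrd1, joins NKG2A (Klrc1) into an inhibitory receptor or NKG2C (Klrc2) into an activating receptor for the non-classical MHC molecule Qa-1, while NKG2D (Klrk1) signals through the adaptor DAP10 and recognises stress-induced ligands. The Klra genes encode the Ly49 receptors of mice, many of which inhibit the cell on binding classical MHC class I. In CD8+ T cells the inhibitory members are known as brakes that follow activation, and NKG2D as a costimulatory receptor.

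The 9 receptor genes lie on chromosome 6 and Ncr1 lies on chromosome 7, in the mouse assembly GRCm38.p6. RefSeq promoter windows of that assembly, from 250 bases before a start to 50 bases after it, were at hand for 8 of the 10 genes, all but Klrd1 and Klrg1. The windows of Klra6 (chr6:130026905-130027204, minus strand) and Klra7 (chr6:130233273-130233572, minus strand) are shown because both Ly49 genes had their highest levels on the same arrays, and capitals mark their longest identical run, of 30 bases.

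Klra6: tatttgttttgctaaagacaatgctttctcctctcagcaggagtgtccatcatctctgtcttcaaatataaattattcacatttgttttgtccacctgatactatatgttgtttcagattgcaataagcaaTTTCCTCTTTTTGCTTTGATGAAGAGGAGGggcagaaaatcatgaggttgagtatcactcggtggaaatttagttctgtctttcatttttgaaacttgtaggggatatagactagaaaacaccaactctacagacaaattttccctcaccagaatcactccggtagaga

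Klra7: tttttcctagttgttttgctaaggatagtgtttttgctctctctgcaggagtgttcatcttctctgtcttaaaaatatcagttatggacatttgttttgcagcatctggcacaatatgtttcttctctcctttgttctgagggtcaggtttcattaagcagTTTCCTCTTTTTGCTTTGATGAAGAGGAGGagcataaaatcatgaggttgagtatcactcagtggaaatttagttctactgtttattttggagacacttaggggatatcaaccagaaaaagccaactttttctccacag

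With that run aligned, 158 of 270 bases (58.5%) were identical. Of the 32850 promoter windows other than that of Klra6, 4 share a run of that length with it, and they belong to Klra3, Klra5, Klra7 and Klra9, all Ly49 genes. The coding parts of Ly49 genes are also alike, so probes of Klra6, Klra7 and their relatives may detect each other's transcripts, and the values of single Ly49 genes are uncertain to that extent.

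The windows of Klrc1 (chr6:129678924-129679223, minus strand), Klrk1 (chr6:129623815-129624114, minus strand) and Ncr1 (chr7:4337465-4337764, plus strand) are shown next because they hold the letters TGTGGT or their reverse complement ACCACA, the core bound by RUNX factors, marked in capitals.

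Klrc1: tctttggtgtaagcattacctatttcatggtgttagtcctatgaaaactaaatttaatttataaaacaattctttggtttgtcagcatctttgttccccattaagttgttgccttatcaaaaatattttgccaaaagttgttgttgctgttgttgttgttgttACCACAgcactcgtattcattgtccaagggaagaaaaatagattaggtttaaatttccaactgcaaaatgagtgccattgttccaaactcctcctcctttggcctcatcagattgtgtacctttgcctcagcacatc

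Klrk1: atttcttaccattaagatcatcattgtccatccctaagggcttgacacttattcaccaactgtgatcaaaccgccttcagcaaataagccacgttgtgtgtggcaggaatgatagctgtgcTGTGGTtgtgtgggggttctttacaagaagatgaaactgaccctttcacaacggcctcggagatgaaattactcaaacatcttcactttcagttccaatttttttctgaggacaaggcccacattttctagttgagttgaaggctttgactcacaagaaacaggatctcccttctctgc

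Ncr1: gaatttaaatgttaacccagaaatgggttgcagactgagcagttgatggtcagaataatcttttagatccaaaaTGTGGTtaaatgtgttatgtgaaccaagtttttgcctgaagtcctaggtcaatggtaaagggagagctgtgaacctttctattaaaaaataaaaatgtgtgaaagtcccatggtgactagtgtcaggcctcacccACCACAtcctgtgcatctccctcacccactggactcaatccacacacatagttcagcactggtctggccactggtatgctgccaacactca

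At least 1 match on either strand stood in the windows of 6 of the 8 genes, Klrb1c, Klre1, Klrk1, Klrc1, Klrc2 and Ncr1, and in none of those of Klra6 and Klra7. Over all genes with a window, 18.9% (5113 of 27025) held a match. The T-box letters GGTGTGA, searched on both strands, were in none of the 8 genes' windows and in 4.6% of all genes' windows. A match describes these letters only.

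Which of these receptor genes gave a signal in the CD8+ cells at all was read against 1091 odorant receptor (Olfr) genes, whose mean log2 levels ran from 2.56 to 4.31 between the 5th and the 95th percentile. The values are log2 RMA levels, which also depend on each gene's probes, so levels of different genes are not ranked here. Over the 21 arrays, 6 of the 10 genes had a mean above that range: Klrd1, Klrc1, Klrk1, Klra7 and Klre1, each above 4.31 on 21 of 21 arrays, and Klra6 on 20 of 21. The means of Klrc2 (4.08), Klrg1 (3.88), Klrb1c (2.98) and Ncr1 (3.44) lay within it, with 4 arrays above 4.31 for Klrc2, 1 for Klrg1, 0 for Klrb1c and 0 for Ncr1. Differences of these 4 genes lie near the array's floor, where they are compressed.

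**Figure D1:**
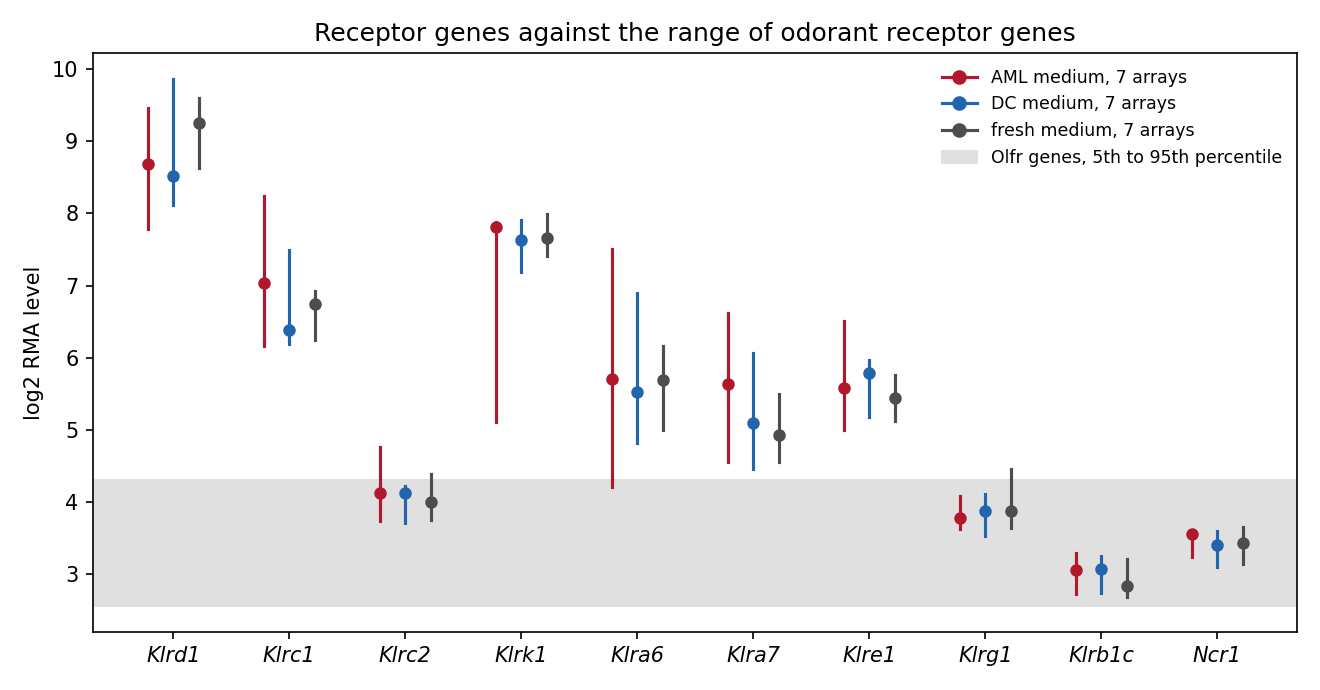
Log2 RMA level (y axis) of the 9 receptor genes and Ncr1 (x axis), with AML-conditioned medium left, DC-conditioned medium in the middle and fresh medium right. Points are medians and lines run from the lowest to the highest of 7 arrays, and the grey band spans the 5th to the 95th percentile of 1091 odorant receptor genes. Ncr1 and Klrb1c lie inside the band on all arrays.

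Ncr1, which encodes the activating receptor NKp46 and is a defining marker of NK cells, ranged between 3.24 and 3.60 (median 3.56) in AML medium, between 3.09 and 3.60 (median 3.41) in DC medium and between 3.14 and 3.66 (median 3.44) in fresh medium. Klrb1c encodes NK1.1, another NK marker in strains that carry it, and its highest value on any array was 3.29. In a short list of 9 measured NK marker genes, Ncr1 among them and no killer lectin-like receptor, 4 had a mean above the odorant receptor range (Adamts14, Fcgr3, Itga2 and Cd244a), and 5 did not, among them Tyrobp (3.33) and Fcer1g (3.66), which encode signalling adaptors of NK receptors. The mean log2 level of the 9 markers on an array ran from 3.94 to 4.23 in AML medium, from 3.92 to 4.39 in DC medium and from 3.96 to 4.40 in fresh medium, so that the media overlapped, and 0 of the 9 passed the test in any comparison. The longer NK list of 15 measured genes, which adds Klrb1c, Klrc1, Txk, Cd7, Kit and Gzma to these 9, had 1 call, Gzma, lower in AML medium (log2 difference -2.23, limma adjusted p = 0.00324, against fresh medium and -2.34, limma adjusted p = 0.00270, against DC medium), a granzyme that CD8+ effectors express too. Markers of gamma delta and NKT cells (6 measured), of B cells (6) and of myeloid and dendritic cells (11) also gave 0 calls in each comparison. Of these lists 5, 2 and 1 genes had a mean above the odorant receptor range. Among all genes 2.77% were called in AML against fresh, 0% in DC against fresh and 2.39% in AML against DC medium. Such counts of 0 are therefore not read as a result about these cell types. The T cell genes Cd3e, Cd8a and Cd8b1 stood between 11.5 and 12.0 on all 21 arrays. Of 9 measured CD8 T cell markers, 0 were called in either conditioned medium against fresh medium and 1 was lower in AML than in DC medium, Themis, a T cell signalling protein. It lay between 11.06 and 11.72 (median 11.31) in AML, between 11.64 and 11.84 (median 11.73) in DC and between 11.50 and 11.79 (median 11.71) in fresh medium. Its log2 difference was -0.37 for AML against DC medium (limma adjusted p = 0.0222, lost without AML replicate 4 at 0.0670 or AML replicate 5 at 0.0644) and -0.31 for AML against fresh medium (limma adjusted p = 0.0531).

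Whether the media changed the receptors was tested with limma in 1 fit of all 21 arrays, with Benjamini-Hochberg adjustment over the 19505 genes and a call at an adjusted p under 0.05. None of the 10 genes was called in AML medium against fresh medium, where 2.77% of all genes were called (253 higher and 288 lower). Klra7 alone was called there once the division of the replicates described with its values was a term of the fit. In DC medium against fresh medium 0 of the 10 were called and 0% of all genes, and in AML against DC medium 0 of the 10, beside 2.39% of all genes. At an unadjusted p under 0.05, 2 of the 10 (Klra7 and Klrb1c) and 3100 of all genes passed in AML against fresh medium. In DC against fresh medium these numbers were 0 and 1251, and in AML against DC medium 0 and 2782. The median log2 difference of the 10 genes was 0.15 in AML against fresh medium, where that of all genes was -0.01, and it was 0.01 in DC against fresh medium, where that of all genes was -0.01. Both conditioned media were compared with the same 7 fresh arrays.

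Klrd1, the CD94 chain, had log2 levels between 7.79 and 9.46 (median 8.69) in AML medium, between 8.12 and 9.86 (median 8.53) in DC medium and between 8.63 and 9.60 (median 9.25) in fresh medium. All 3 ranges overlapped. Its log2 difference was -0.45 (SE 0.30, 95% interval -1.07 to 0.18, limma adjusted p = 0.509) for AML against fresh medium and -0.20 (95% interval -0.83 to 0.42, limma adjusted p = 0.957) for DC against fresh medium. In a bulk sample, fewer cells that carry a transcript and less of it per cell cannot be told apart, here and in every result that follows.

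Klrc1, the inhibitory NKG2A partner of CD94, lay between 6.16 and 8.24 (median 7.04) in AML medium, between 6.19 and 7.49 (median 6.39) in DC medium and between 6.24 and 6.92 (median 6.74) in fresh medium. The AML arrays thus reached both lower and higher than the fresh arrays. The log2 difference for AML against fresh medium was 0.48 (SE 0.26, 95% interval -0.06 to 1.03, limma adjusted p = 0.386). Klrc2, the activating NKG2C partner, stayed near the floor, with medians of 4.13 in AML, 4.12 in DC and 4.00 in fresh medium.

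Klrk1, the activating receptor NKG2D, spread widely in AML medium, between 5.11 and 7.88 (median 7.82), against 7.20 to 7.91 (median 7.63) in DC medium and 7.41 to 7.99 (median 7.66) in fresh medium. The low AML values came from 2 arrays, replicates 4 (5.36) and 5 (5.11), while the other 5 AML arrays lay between 7.59 and 7.88, inside the fresh range. These 2 arrays also stand apart from the other AML arrays over all genes, on the second component of the deviations from the medium means (0.55 and 0.53, with the other 5 between -0.32 and -0.12). The log2 difference of Klrk1 for AML against fresh medium was -0.63 (SE 0.35, limma adjusted p = 0.399) with all arrays and 0.11 (limma adjusted p = 0.821) without both, so its sign rested on them. On the same setting the log2 difference was 1.07 for Klra6, 1.08 for Klra7 and 0.85 for Klrc1, with limma adjusted p-values between 0.0553 and 0.214, and still 0 of the 10 genes were called. That of Klrd1 was -0.09 (limma adjusted p = 0.952) without both, against -0.45 with all arrays.

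Klra6, which encodes the inhibitory receptor Ly49F, lay between 4.21 and 7.51 (median 5.70) in AML medium, between 4.81 and 6.90 (median 5.52) in DC medium and between 4.99 and 6.16 (median 5.70) in fresh medium. The medians of AML and fresh medium were nearly equal and the AML arrays spread more than the fresh ones on both sides (SD 1.33 in AML and 0.41 in fresh medium, n = 7 each). Klra7, which encodes the inhibitory receptor Ly49G, lay between 4.55 and 6.62 (median 5.64) in AML medium, between 4.46 and 6.06 (median 5.09) in DC medium and between 4.56 and 5.49 (median 4.93) in fresh medium. The log2 difference for AML against fresh medium was 0.43 (SE 0.43, limma adjusted p = 0.697) for Klra6. For Klra7 it was 0.72 (SE 0.28, 95% interval 0.15 to 1.30, limma adjusted p = 0.181), and the ranges overlapped. With replicates 1 to 3 and 4 to 7 as a 2-level term, an alternative chosen after earlier results were known, Klra7 was called at the same log2 difference (0.72, limma adjusted p = 0.0123).

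Klre1 encodes a receptor that pairs with the products of Klri1 or Klri2 in rodents. Its log2 level lay between 5.00 and 6.52 (median 5.59) in AML medium, between 5.18 and 5.97 (median 5.79) in DC medium and between 5.13 and 5.77 (median 5.44) in fresh medium. The log2 difference for AML against fresh medium was 0.22 (SE 0.18, limma adjusted p = 0.617), and the means of Klri1 (4.08) and Klri2 (3.92) lay within the odorant receptor range. Klrg1, an inhibitory receptor for cadherins and a marker of terminally differentiated effector CD8+ T cells, had medians of 3.78 in AML, 3.87 in DC and 3.88 in fresh medium, with a log2 difference for AML against fresh medium of -0.16 (SE 0.11, limma adjusted p = 0.511). Klrb1c differed by 0.20 (SE 0.09, limma adjusted p = 0.289) and Ncr1 by 0.05 (SE 0.10, limma adjusted p = 0.867) on the log2 scale in that comparison.

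The wide spread of Klra6, Klra7 and Klrc1 in the conditioned media lay along the replicate numbers. Replicates 1 to 3 and replicates 4 to 7 also stood apart over all genes, on the first component of the deviations from the medium means (0.07 to 0.45 in replicates 1 to 3 and -0.29 to 0.00 in replicates 4 to 7). The labels name nothing that separates them, and this division was chosen after results of these arrays were known. In replicates 1 to 3 Klra6 had log2 levels of 7.41, 7.51 and 7.10 in AML medium and 6.90, 6.57 and 6.07 in DC medium, against 5.72, 6.16 and 6.01 in fresh medium. All 3 AML arrays were above all 3 fresh arrays, and the DC arrays overlapped with the fresh ones. In replicates 4 to 7 it had 4.21, 4.64, 5.70 and 5.66 in AML medium and 4.81, 5.52, 5.14 and 5.24 in DC medium, against 4.99, 5.70, 5.31 and 5.36 in fresh medium, where the media overlapped.

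**Figure D2:**
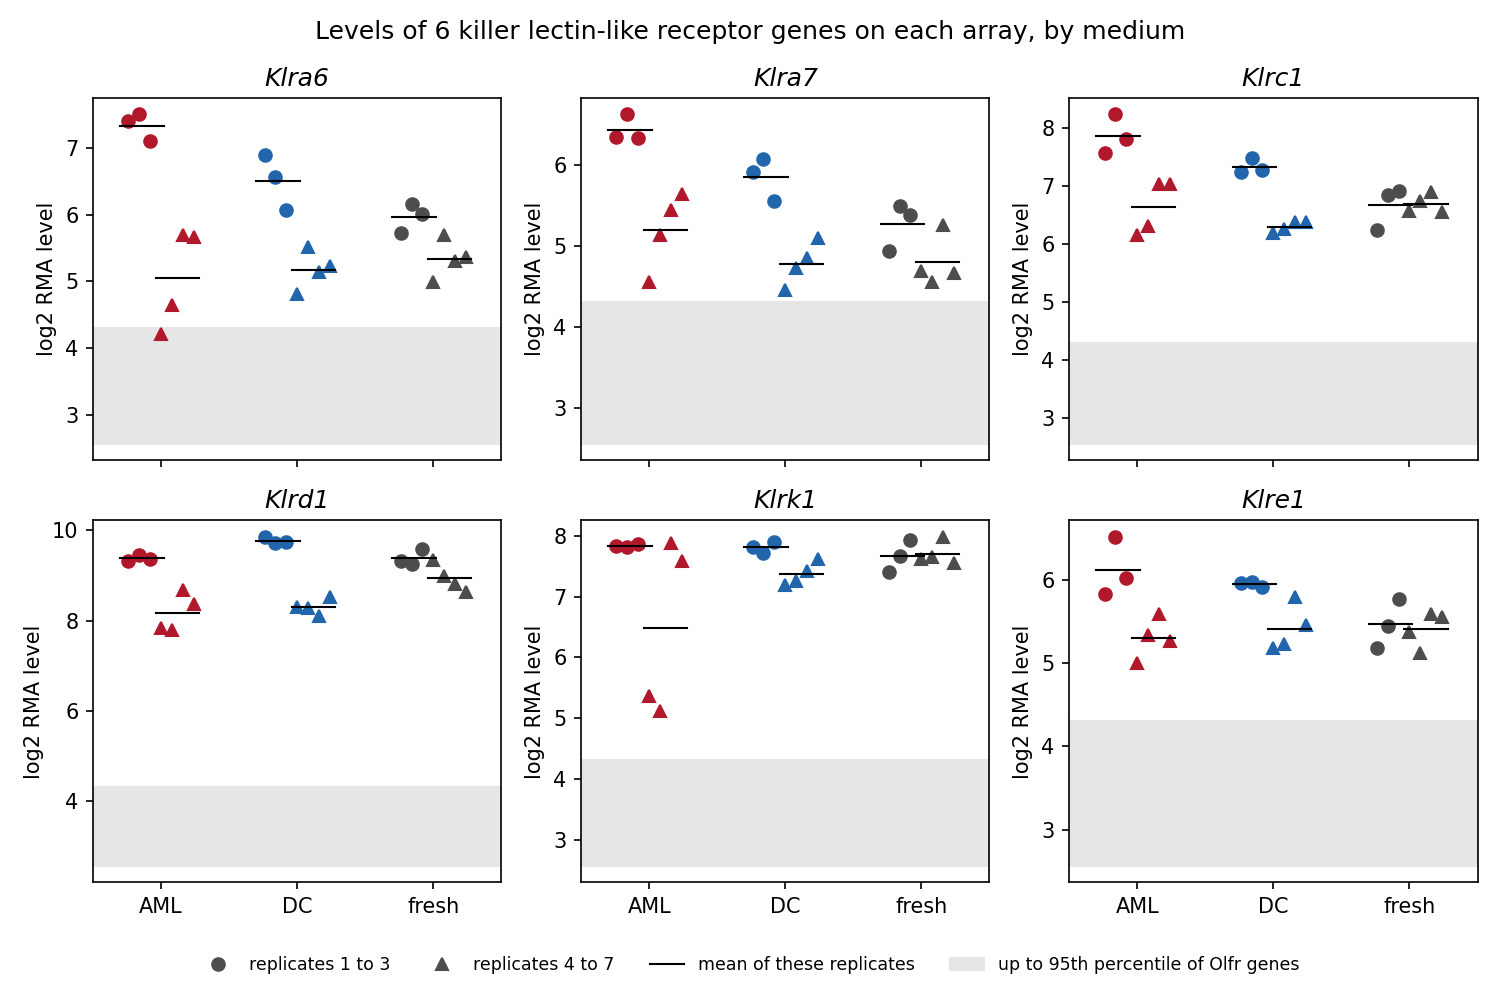
Log2 RMA level (y axes) of 6 receptor genes on each array, by medium (x axes: AML, DC, fresh). Circles are replicates 1 to 3, triangles replicates 4 to 7, black lines their means, and the grey band the range of odorant receptor genes up to the 95th percentile. Klra6, Klra7 and Klrc1 are higher in AML medium than in fresh medium in all circles, and Klrk1 is low on 2 AML arrays, replicates 4 and 5.

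In a fit of replicates 1 to 3 alone, 3 of the 10 genes were called in AML against fresh medium, all higher, beside 1.92% of all genes. Klra6 was 2.59-fold higher in AML medium (log2 difference 1.37, SE 0.19, limma adjusted p = 0.00340). Klra7 had 6.34, 6.62 and 6.33 in AML medium and 5.91, 6.06 and 5.56 in DC medium, against 4.93, 5.49 and 5.38 in fresh medium. It was 2.23-fold higher in AML than in fresh medium (log2 difference 1.16, SE 0.17, limma adjusted p = 0.00388). Klrc1 had 7.57, 8.24 and 7.81 in AML medium and 7.25, 7.49 and 7.28 in DC medium, against 6.24, 6.86 and 6.92 in fresh medium. It was 2.30-fold higher in AML than in fresh medium (log2 difference 1.20, SE 0.19, limma adjusted p = 0.00923). For these 3 genes no AML array overlapped with a fresh or a DC array of replicates 1 to 3. Such separation was common there: AML and fresh arrays did not overlap, in either direction, for 7 of the 10 genes and 21.3% of all genes, and AML and DC arrays for 5 of the 10 and 21.1% of all genes.

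Klrd1, which NKG2A needs to reach the surface, showed no such difference: it had 9.33, 9.46 and 9.37 in AML medium, against 9.33, 9.25 and 9.60 in fresh medium (log2 difference -0.01, SE 0.11, 95% interval -0.24 to 0.23, limma adjusted p = 0.985). Klre1 differed by 0.66 (limma adjusted p = 0.0850), Klrc2 by 0.44 (limma adjusted p = 0.111) and Klrb1c by 0.37 (limma adjusted p = 0.173), each without overlap between AML and fresh arrays and none called. Ncr1 had 3.60, 3.39 and 3.60 in AML medium, against 3.61, 3.63 and 3.66 in fresh medium (log2 difference -0.10, limma adjusted p = 0.620), all within the odorant receptor range, and the part of NK cells in these differences was not tested.

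In replicates 4 to 7 alone, 0 of the 10 genes were called in AML against fresh medium, beside 0.164% of all genes. The log2 difference was -0.29 for Klra6 (95% interval -0.88 to 0.30, limma adjusted p = 0.664), 0.40 for Klra7 (-0.05 to 0.84, limma adjusted p = 0.375) and -0.05 for Klrc1 (-0.42 to 0.31, limma adjusted p = 0.909). AML replicates 4 and 5, which stand apart over all genes, had the lowest AML values of these 3 genes. Klra7 had 4.55 and 5.13 there and 5.45 and 5.64 in AML replicates 6 and 7, against 4.56 to 5.26 in fresh medium. Klrc1 had 6.16 and 6.32, then 7.04 and 7.04, against 6.55 to 6.91 in fresh medium. Klra6 had 5.70 and 5.66 in AML replicates 6 and 7, near its highest fresh value of 5.70. Klrd1 had 7.83, 7.79, 8.69 and 8.37 in AML medium, against 9.35, 9.00, 8.82 and 8.63 in fresh medium, a log2 difference of -0.78 (SE 0.19, limma adjusted p = 0.116). The difference between both sets of replicates in the AML effect, tested as an interaction in 1 fit of all arrays, was -1.66 for Klra6 (SE 0.39, limma adjusted p = 0.201) and -1.26 for Klrc1 (SE 0.28, limma adjusted p = 0.199). For Klra7 it was -0.76 (SE 0.30, limma adjusted p = 0.371), so none of the 3 passed. In that fit 1 gene of all 19505 was called.

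In DC against fresh medium 0 of the 10 genes were called in either set of replicates, beside 0% of all genes in both. Klrd1 had 9.86, 9.72 and 9.75 in DC medium, against 9.33, 9.25 and 9.60 in fresh medium, in replicates 1 to 3, a log2 difference of 0.38 (SE 0.11, limma adjusted p = 0.468). In replicates 4 to 7 it had 8.29, 8.29, 8.12 and 8.53 in DC medium, against 9.35, 9.00, 8.82 and 8.63 in fresh medium, a log2 difference of -0.64 (SE 0.19, limma adjusted p = 0.660). DC and fresh arrays overlapped in neither set, in opposite directions, and the interaction was -1.03 (SE 0.25, limma adjusted p = 0.497). Klrc1 showed the same opposition without overlap in either set, with a log2 difference of 0.67 in replicates 1 to 3 against -0.39 in replicates 4 to 7 (interaction -1.05, SE 0.28, limma adjusted p = 0.501). Without overlap between DC and fresh arrays were 5 of the 10 genes and 13.7% of all genes in replicates 1 to 3, and 2 of the 10 and 5.92% of all genes in replicates 4 to 7. In AML against DC medium, 0 of the 10 were called in replicates 1 to 3, beside 1.63% of all genes, and 0 in replicates 4 to 7, beside 0.22%.

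**Figure D3:**
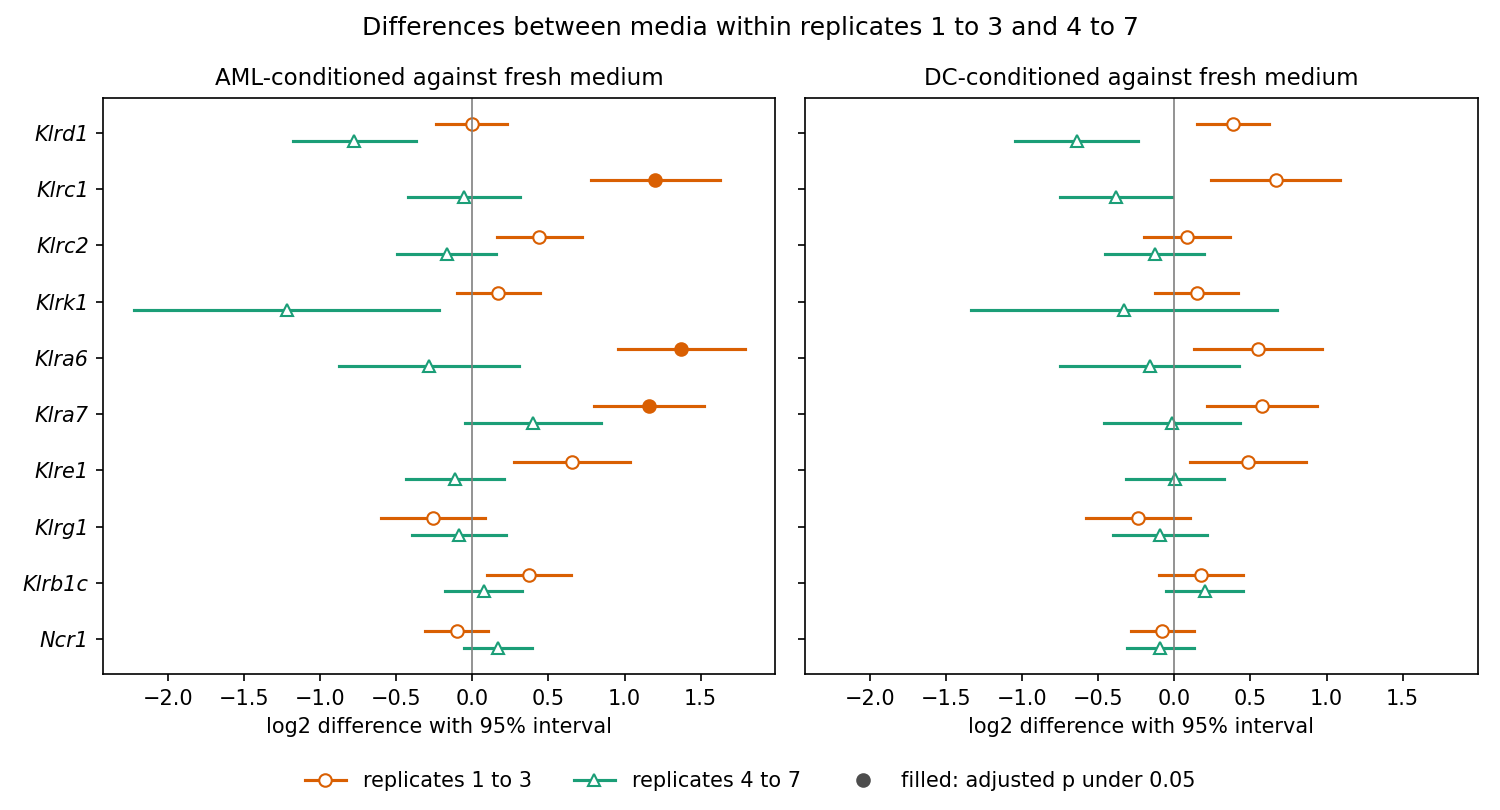
Log2 difference (x axes) with its 95% interval for each gene (y axis), for AML against fresh medium (left) and DC against fresh medium (right), within replicates 1 to 3 (circles) and replicates 4 to 7 (triangles). Filled symbols have a limma adjusted p under 0.05 over all genes: Klra6, Klra7 and Klrc1 in AML medium, in replicates 1 to 3.

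Whether the receptor genes varied together with the NK marker was examined over the 21 arrays with each medium's mean removed, as 9 correlations with Ncr1. Pearson's r ran from -0.30 for Klrb1c to 0.56 for Klrd1, and the Benjamini-Hochberg adjusted permutation p-values over the 9 ran from 0.0558 to 0.324, so none passed by r. By Spearman's rho, adjusted likewise, 5 of the 9 passed: Klra6 (rho = 0.63, adjusted permutation p = 0.0123), Klra7 (0.61, 0.0180), Klrd1 (0.62, 0.0184), Klrc1 (0.51, 0.0414) and Klre1 (0.48, 0.0492). Both measures thus differed in their calls, with r = 0.56 (permutation p = 0.0131, two-sided) for Klrd1, 0.52 for Klra6 and 0.51 for Klra7. Without the 2 arrays farthest from the median of Ncr1, r of Klrd1 was 0.65 (adjusted permutation p = 0.0452) and the other 8 genes did not pass by r, while 3 passed by rho, Klrd1 (0.72, adjusted permutation p = 0.0131), Klra7 (0.64, 0.0221) and Klra6 (0.57, 0.0221). The share of all genes that would pass these tests is not given here, so the calls are not read as a trait of these genes. These permutations were made within media, across both sets of replicates. Ncr1 had higher means over replicates 1 to 3 than over replicates 4 to 7. They were 3.55 against 3.22 in DC, 3.63 against 3.31 in fresh and 3.53 against 3.48 in AML medium. With the means of both sets of replicates removed as well, r of Klrd1 was -0.01, that of Klra7 0.04 and that of Klra6 0.32. All 9 adjusted permutation p-values were then 0.979 by r and 0.994 by rho. Within replicates 1 to 3 (9 arrays) r of the 9 genes ran from -0.60 to 0.42, and within replicates 4 to 7 (12 arrays) from -0.18 to 0.42, and none passed by r or by rho in exact permutation tests. Within 1 medium at a time (7 arrays), Klra6 in fresh medium had r = 0.94 (exact permutation p = 0.00337, adjusted p = 0.0304 over the 9) and rho = 0.93 (adjusted p = 0.0607), and no other gene passed by r, and none by rho, in any medium. Over replicates 1 to 3 and 4 to 7 of fresh medium, Klra6 had means of 5.96 and 5.34 and Ncr1 of 3.63 and 3.31. The test permuted arrays across both sets and was adjusted over 1 medium only. It cannot separate this likeness from the division of the replicates. Ncr1 itself lay within the odorant receptor range on every array, so its variation is that of a gene near the floor.

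**Figure D4:**
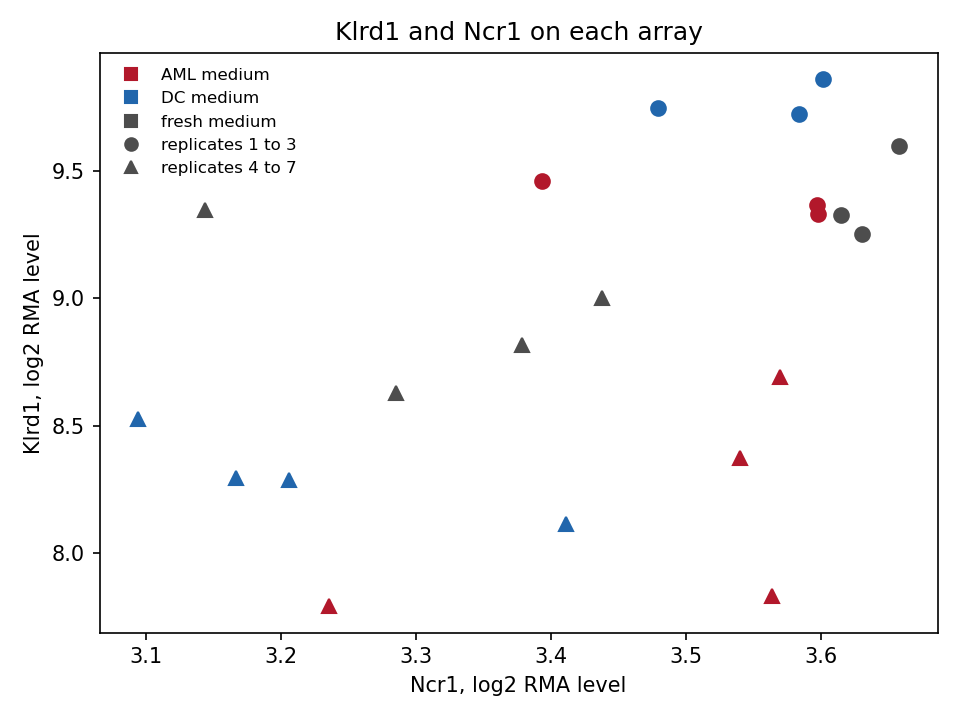
Log2 RMA level of Klrd1 (y axis) against that of Ncr1 (x axis) on the 21 arrays, coloured by medium. Replicates 1 to 3 (circles) lie between 9.25 and 9.86 in Klrd1 and replicates 4 to 7 (triangles) between 7.79 and 9.35, and with the medium and set means removed r was -0.01.

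With Ncr1 as a covariate in the fit of all arrays, the log2 difference for AML against fresh medium was 0.29 for Klra6, 0.64 for Klra7, -0.55 for Klrd1 and -0.69 for Klrk1, and 0 of the other 9 genes were called. Without the covariate 0 of the 10 were called as well, and Ncr1 lay within the odorant receptor range on every array. This fit therefore cannot show the part of NK cells, which was not tested. Cd4, a marker of the other main T cell lineage, rose in AML medium: it lay between 7.80 and 9.03 (median 8.64) in AML, against 7.25 to 8.16 (median 7.76) in fresh medium (log2 difference 0.79, limma adjusted p = 0.0150, and 0.0622 without AML replicates 4 and 5). Of 5 measured CD4 T cell markers 1 passed, and their mean on an array ran from 7.24 to 7.65 in AML and from 6.94 to 7.47 in fresh medium. The part of this shift in the receptor values was not tested.

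Of the 17 other Klr symbols on the array, 1 rose and 0 fell in AML against fresh medium, Klra13-ps, a Ly49 pseudogene. It lay between 6.20 and 8.09 (median 6.85) in AML, between 5.75 and 7.34 (median 6.28) in DC and between 5.83 and 6.59 (median 6.06) in fresh medium, a log2 difference of 1.01 (SE 0.27, limma adjusted p = 0.0440) for AML against fresh medium. It showed the same division as Klra6 and Klra7, with a log2 difference of 1.70 in replicates 1 to 3 (limma adjusted p = 0.000478) and 0.49 in replicates 4 to 7 (limma adjusted p = 0.188). The call was lost on leaving out any of 12 single arrays in turn, AML replicates 1, 2, 3 and 5, DC replicates 5 and 7 and all fresh arrays but replicate 3, with log2 differences of 0.85 to 1.06 there and adjusted p-values up to 0.0925. Apart from Klra13-ps, Klrb1f alone among the 17 had a mean above the odorant receptor range. The median difference of the 17 was 0.05, where that of all genes was -0.01.

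Among 17 measured adaptors and proximal signalling genes of the receptors, 0 passed in any comparison. Hcst, which encodes the DAP10 adaptor of NKG2D, lay between 5.33 and 6.73 (median 6.48) in AML, between 5.89 and 6.36 (median 6.05) in DC and between 5.64 and 6.42 (median 5.98) in fresh medium (log2 difference for AML against fresh medium 0.27, SE 0.16, limma adjusted p = 0.435). Tyrobp, which encodes the DAP12 adaptor of activating NKG2C and Ly49 receptors, had medians of 3.34 in AML, 3.29 in DC and 3.40 in fresh medium, within the odorant receptor range. Among 10 measured ligand genes 0 passed as well. Clec2d, which encodes a ligand of an inhibitory NKR-P1 receptor, had the lowest adjusted p in AML against fresh medium (log2 difference 0.36, limma adjusted p = 0.0601), and H2-T23, which encodes the Qa-1 ligand of CD94 with NKG2A, differed by 0.17 (SE 0.08) and did not pass.

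Among 24 measured genes of innate-like and memory CD8 T cells, 3 rose and 2 fell in AML against fresh medium. Eomes, a T-box factor of memory CD8+ and NK cells, lay between 8.64 and 9.80 (median 9.32) in AML, between 8.25 and 8.64 (median 8.52) in DC and between 8.46 and 8.72 (median 8.56) in fresh medium (log2 difference for AML against fresh medium 0.71, limma adjusted p = 0.00844, and 0.0705 without AML replicates 4 and 5). Xcl1, a chemokine of CD8+ and NK cells, and Il15ra, the chain that presents IL-15, rose by 0.89 and 0.33 on the log2 scale (limma adjusted p = 0.0403 and 0.0273). Ccl5, another chemokine of memory CD8+ cells, fell by 0.80 and Prdm1, which encodes the effector factor Blimp-1, fell by 1.27 (limma adjusted p = 0.0401 and 0.0322). These 4 calls were near the threshold, and each was lost without AML replicate 5, with limma adjusted p-values of 0.111 for Xcl1, 0.0794 for Il15ra, 0.109 for Ccl5 and 0.0890 for Prdm1. Each was also lost, at lower adjusted p-values, without other single arrays: AML replicates 3 and 4 and fresh replicates 2 to 7 for Xcl1, AML replicates 2 and 4 and fresh replicates 1, 2, 3 and 6 for Il15ra, AML replicates 2, 4 and 6 and fresh replicates 1 to 4 for Ccl5, and AML replicates 3 and 4 and fresh replicates 2, 4, 5, 6 and 7 for Prdm1. Without AML replicates 4 and 5 together, Xcl1 differed by 0.47, Il15ra by 0.27, Ccl5 by -0.70 and Prdm1 by -0.72. Their limma adjusted p-values were then between 0.192 and 0.228. Il2rb, the shared receptor chain for IL-2 and IL-15, differed by -0.12 with all arrays (limma adjusted p = 0.357).

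Among 12 measured cytotoxic granule genes, 0 rose and 1 fell in AML against fresh medium. Gzma, the granzyme shared by NK cells and CD8+ effectors, lay between 4.91 and 7.97 (median 7.20) in AML, between 8.26 and 9.94 (median 8.93) in DC and between 8.09 and 9.65 (median 9.25) in fresh medium, with no overlap between AML and fresh arrays, as for 0.795% of all genes (log2 difference -2.23, SE 0.40, limma adjusted p = 0.00324). Gzmb differed by -0.16 (limma adjusted p = 0.673) and Prf1, the pore-forming perforin, by -0.02 (limma adjusted p = 0.973). In DC against fresh medium 0 genes passed in any of these lists. In AML against DC medium the innate-like and memory list had 3 higher genes (Eomes, Il7r and Il15ra) and 2 lower genes (Gzmm and Prdm1), and the cytotoxic list had 2 lower genes (Gzma and Gzmm). Of these calls that of Gzmm (limma adjusted p = 0.0453) was lost without any of 14 single arrays, AML replicates 1, 2, 4, 5, 6 and 7, DC replicates 1, 2, 3, 5 and 7 and fresh replicates 2, 3 and 5, with adjusted p-values up to 0.121. That of Il15ra (0.0219) was lost without AML replicate 4 (0.0591) or AML replicate 5 (0.0641).

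The genes whose levels most resembled those of Klrd1 and Klrk1 were sought over the 21 arrays after removing the medium means, as a description. For Klrd1 these were Ube2h (r = 0.97), Cdk19 (r = 0.96) and St3gal6 (r = 0.95). For Klrk1 they were Ctla2a (r = 0.97), Rcbtb2 (r = 0.96) and Dlgap5 (r = 0.96). Ctla2a, Rcbtb2 and Dlgap5 had their lowest values in AML medium, Ctla2a at 7.75 in AML against a lowest value of 9.42 in fresh medium, and none of the 6 was called in any comparison. The arrays share the division into replicates 1 to 3 and 4 to 7, and the Klrk1 likeness also shares the 2 low AML arrays.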

How the data were processed

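The authors deposited log2 expression values per transcript cluster of a 1-colour Affymetrix WT Pico array, and the submitters' processing notes name oligo and RMA without versions. The RMA method subtracts background, quantile-normalizes the arrays and combines probes into 1 value without a detection call, so low values lie near a floor. Of 22203 transcript clusters, 19572 had 1 gene symbol, and 1 per symbol (highest mean) left 19505 genes, with no filter. Groups followed the sample titles. limma 3.58.1 in R 4.3.3 fitted all 21 arrays with lmFit and eBayes, and tests were two-sided. Correlations used 100000 permutations within media, or all arrangements where these were 50000 or fewer. The genes, lists and tests were chosen with earlier results of these data known. The text names the 10 genes, the called genes of each list with up to 6 others, 4 T cell genes, and the 3 likest genes of Klrd1 and Klrk1. Listed genes without a row are not reported here. The number of arrays limits the precision. Alternatives were array subsets, a replicate block, covariates, weights and a level filter. The limma test of AML against fresh medium was checked on simulated data with independent noise and no division of the replicates. The correlations and interactions were not checked in this way.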

Additional observations from a re-analysis of the deposited data

Results flagged for a closer look

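For Klrd1, Klrc1 and Klrk1 every DC array of replicates 1 to 3 lay above the fresh mean of that set, and every DC array of replicates 4 to 7 below the fresh mean of its own. The share of all genes with this pattern is not given here, so it is not read as a trait of these genes. A stricter condition, no overlap between DC and fresh arrays, held for 13.7% of all genes in replicates 1 to 3. In replicates 4 to 7 it held for 5.92%. The log2 difference of Klrd1 came to 0.38 in replicates 1 to 3, against -0.64 in replicates 4 to 7 (interaction, limma adjusted p = 0.497). That of Klrc1 came to 0.67 in replicates 1 to 3, against -0.39 in replicates 4 to 7 (limma adjusted p = 0.501). That of Klrk1 came to 0.15 in replicates 1 to 3, against -0.33 in replicates 4 to 7 (limma adjusted p = 0.872). None of the 3 interactions passed after adjustment over all genes, and the labels do not say what separates the replicates. The mean log2 differences of Klra6 (0.55 in replicates 1 to 3 against -0.16 in replicates 4 to 7), Klra7 (0.58 against -0.01) and Klrc2 (0.08 against -0.13) also had opposite signs, but not on every array.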

How the results depend on the processing

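The log2 differences of the 10 genes were recomputed under up to 35 other settings per comparison. Of 1041 such values, 1036 stayed uncalled, 5 were called and 0 called values changed sign, while 59 uncalled values changed sign. In AML against fresh medium the called genes numbered 1 with a replicate block (Klra7, limma adjusted p = 0.00672), 1 with replicates 1 to 3 and 4 to 7 as a 2-level term (Klra7, 0.0123) and 3 in replicates 1 to 3 alone. Whether the replicate numbers pair the arrays is not settled, and the labels state no pairing. In their deviations from the medium means, 13 of 21 same-numbered pairs correlated above 0.1, between -0.11 and 0.36. Of these 21 cases, 10 had an array that correlated best with the array of its own number in the other medium.

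Calls over all genes moved more. In AML against fresh medium (541) they numbered 1012 with the block, 1026 with the 2-level term, 246 with only the 2 groups compared, 901 with Ncr1 as a covariate, 111 without AML replicates 4 and 5, 32 in replicates 4 to 7 alone, and 218 to 776 leaving out 1 array. In DC against fresh medium (0) they numbered 1 with the block, a random effect, the 2-level term, Ncr1 as a covariate or AML replicates 4 and 5 left out, 2 with array weights, and 0 to 2 leaving out 1 array. In AML against DC medium (466) they numbered 784 with the block, 797 with the 2-level term, 249 with only the 2 groups, 788 with Ncr1, 92 without AML replicates 4 and 5, 43 in replicates 4 to 7 alone, and 220 to 784 leaving out 1 array. The cause was not tested. A filter at the 25th percentile of level dropped Klrb1c and Ncr1. Signals near the floor limit Klrc2, Klrg1, Klrb1c and Ncr1.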
